A study of Mus musculus with 4 samples.

Results

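The genes described here are 10 components of the transforming growth factor beta (TGF-beta) pathway, chosen by symbol: the ligand genes Tgfb1 and Tgfb3, the receptor genes Tgfbr1, Tgfbr2 and Tgfbr3, the signal-transducing genes Smad2, Smad3 and Smad4, and the inhibitor genes Smad7 and Skil. All 10 were listed in each of the 4 RNA sequencing libraries, out of 17478 genes listed in at least 1 library, and all 10 passed the filter on low counts. The libraries came from mouse CD4+ T cells that were naive when sorted out of lymph nodes and spleen, and were then cultured under Th9 conditions for 3 days with antibodies to CD3 and CD28. The name Th9 refers to helper T cells that make interleukin 9. The donors were C57BL/6 mice aged 6 to 8 weeks. The wild-type group had 2 libraries, and the other group had 2 libraries labelled BFAR-/-, from mice described as deficient in T cells only. The sources used here do not give the promoter that drove the deletion, the added cytokines, or whether the wild-type mice carried a Cre transgene or floxed alleles. No label ties the libraries of a group to separate animals, and the p-values then measure only the spread between these libraries, which may be technical.

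TGF-beta ligands are secreted in a latent complex and must be released before they bind. An active ligand brings together the type II receptor, encoded by Tgfbr2, and the type I receptor kinase, encoded by Tgfbr1, while the co-receptor encoded by Tgfbr3 (betaglycan) presents ligand. The type I receptor phosphorylates SMAD2 and SMAD3, which join SMAD4 and act on genes in the nucleus. SMAD7 blocks the receptor, and SKIL (SnoN) represses SMAD-bound genes. Both Smad7 and Skil are well-known targets of the pathway. In helper T cells TGF-beta acts together with interleukin 4 to induce Th9 cells, and published work of the study links Bfar, which encodes a membrane-bound ubiquitin ligase, to this pathway. The question addressed here was whether transcript levels of the pathway's components differed in the knockout.

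The libraries were of like depth, with 19058009 to 19782923 expected counts each. CPM below are counts relative to library size. Markers of CD4 T cells were abundant, with the 8 listed markers summing to 2243 and 2263 CPM in wild type and 2463 and 2418 CPM in the knockout. Of these 5 rose and 1, Cd5, fell by edgeR, where 13.6% of all tested genes were called higher and 13.2% lower. Il9 was present in all 4 libraries. In the knockout libraries Bfar had 8.45 and 7.79 CPM, against 36.4 and 32.9 CPM in wild type, which matches the labels. A gene annotated on the same strand, 3110001I22Rik, overlaps 150 exon bases of Bfar. The wild-type counts of Bfar were fractional (721.77 and 651.31). The part of that overlap in the Bfar reads left in the knockout was not tested. Markers of other cells were low. Those of macrophages and monocytes summed to at most 0.656 CPM, those of B cells to at most 5.31 CPM and those of dendritic cells to at most 5.97 CPM. Those of mast cells summed to at most 3.58 CPM, of platelets to 1.40 CPM, of natural killer cells to 3.68 CPM and of erythroid cells to 0.685 CPM. The highest of these sets were CD8 T cell markers, at most 11.6 CPM, and stromal markers, at most 27.3 CPM, mostly from Pecam1. Of 8 regulatory T cell markers 6 rose and none fell by edgeR (1 was lower at an unadjusted p under 0.05, and none fell by DESeq2 or limma), and their summed level was 4428 and 4537 CPM in wild type and 5221 and 5224 CPM in the knockout. The part of these markers in the results below was not tested. In bulk RNA, fewer cells of a type and less RNA per cell cannot be told apart.

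Tgfb3 was the member that changed most, rising about 2.8-fold in the knockout from a low level. Tgfbr2 and Skil rose by about 10%, although several other ways of processing did not call these small changes. No member fell. The type I receptor Tgfbr1 and the transducers Smad2, Smad3 and Smad4 had differences near 0. By edgeR's quasi-likelihood test over 12677 genes, at an adjusted p under 0.05, 3 of the 10 members were higher in the knockout and 0 lower, where 13.6% of all tested genes were called higher and 13.2% lower. At an unadjusted p under 0.05, 5 members were higher and 1, Tgfb1, was lower. The share of all tested genes was not counted at that threshold, so these counts have no background. DESeq2 and limma called 0 members lower. Among the members 7 had a positive log2 fold change, the knockout relative to wild type, against 6286 of all 12677 tested genes. The median log2 fold change was 0.09 in the members and -0.00 over all tested genes.

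**Figure D1:**
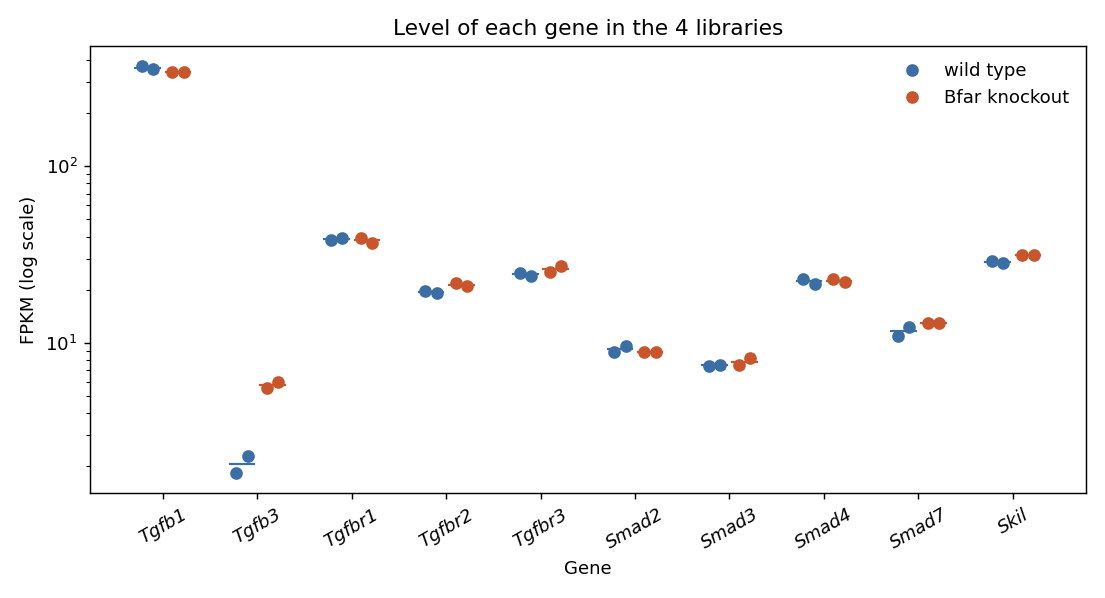
FPKM (fragments scaled to transcript length and library size; log axis) of each gene in each library; points are single libraries and short lines are group means (n = 2). Tgfb3 is the lowest member and the one whose groups stand clearly apart, at 1.83 and 2.28 in wild type and 5.56 and 5.95 in the knockout.

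The levels of the members spanned a wide range. In FPKM, which corrects for transcript length so that genes can be compared, Tgfb1 had 351.9 ± 13.3 over the 4 libraries (SD), above 98.7% of tested genes. Tgfbr1 followed with 38.3 ± 1.24 FPKM, then Skil with 30.1 ± 1.61, Tgfbr3 with 25.4 ± 1.41, Smad4 with 22.4 ± 0.651 and Tgfbr2 with 20.4 ± 1.19. The lower members were Smad7 with 12.2 ± 0.915 FPKM, Smad2 with 9.04 ± 0.351, Smad3 with 7.62 ± 0.36 and Tgfb3 with 3.91 ± 2.15. The median tested gene had 9.98 FPKM, so Smad2, Smad3 and Tgfb3 lay below it. This order was the same in each library. Smad4 and Tgfbr2 were the one pair of neighbours whose ranges overlapped across libraries (21.55 to 22.92 and 19.19 to 21.79 FPKM).

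Because Tgfb1 had far more FPKM than Tgfb3, the most alike coding stretch of the ligand transcripts is shown, to let a reader see whether reads of one could be counted for the other. The stretches are 60 bases of exon 7 of 7, on GRCm38, from chr7:25704851-25704910 (plus strand) for Tgfb1 and chr12:86057812-86057871 (minus strand) for Tgfb3, from the GENCODE M21 transcripts. They encode part of the secreted ligand, and capitals mark the 11 bases that differ:
Tgfb1: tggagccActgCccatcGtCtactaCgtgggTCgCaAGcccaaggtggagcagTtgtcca
Tgfb3: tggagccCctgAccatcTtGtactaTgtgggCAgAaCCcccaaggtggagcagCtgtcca
The longest exact run that the transcripts share is 15 bases, and they share 0 runs of 31 bases. The deposited counts of both genes were whole numbers, so neither held a fractional share of a read.

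Tgfb1 (gene 21803, chromosome 7, 25687002 to 25705077, GRCm38) encodes the main TGF-beta ligand of lymphocytes. It had 369.5 and 354.8 FPKM in the wild-type libraries and 340.6 and 342.6 FPKM in the knockout libraries, from 14309 to 16023 counts. Both knockout values lay below both wild-type values. The log2 fold change of Tgfb1 was -0.08 ± 0.03 (SE, from 2 libraries per group), with an edgeR adjusted p of 0.11 and a 95% interval of -0.15 to -0.00, so it did not pass the test. In CPM, groups without overlap were seen for 63.5% of all tested genes and for 6 of the 10 members. The knockout was the lower group for 31.9% of tested genes and 1 member, Tgfb1, and the higher group for 31.6% of tested genes and 5 members.

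Tgfb3 (gene 21809, chromosome 12, 86056743 to 86079041) encodes a second ligand that uses the same receptors. Its counts were 124 and 154 in wild type and 368 and 388 in the knockout. In CPM these were 6.26 and 7.79, against 19.1 and 20.4, so every knockout library had more than either wild-type library. Tgfb3 rose by 1.49 ± 0.11 in log2 units (SE, n = 2 per group; adjusted p = 2.32e-07 by edgeR), a 2.81-fold change with a 95% interval of 2.38 to 3.32. The call held under each of the 13 alternative settings, with log2 fold changes of 1.15 to 1.66. A gene annotated on the opposite strand, Gm48008, overlaps 257 exon bases of Tgfb3, and the strand setting of the counting is not given in the sources used here. Gm48008 is not listed in any of the tables, which does not show whether it was in the annotation used or was transcribed.

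Although Tgfb3 rose, it remained a small part of the ligand transcripts. Its share of the summed FPKM of Tgfb1 and Tgfb3 was 0.493% and 0.639% in wild type and 1.61% and 1.71% in the knockout. The means were 0.566% ± 0.103 and 1.66% ± 0.0716 (SD, n = 2), and the groups did not overlap. An exact two-sided permutation test over the 4 libraries gave p = 0.333, the smallest it can give with this design. The ligand gene Tgfb2, which is no member, was too low to test, with 6 and 8 counts in wild type against 3 and 4 in the knockout.

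Markers of other cell types were examined beside the ligands, because Tgfb3 was low. The 4 platelet markers summed to 1.06 and 0.81 CPM in wild type and 1.40 and 1.16 CPM in the knockout. Pf4 and Ppbp were at 0 in all 4 libraries, Itga2b gave most of the sum (1.06 and 0.81 against 1.35 and 1.11 CPM, edgeR adjusted p = 0.413), and Gp1bb was seen in the knockout libraries at 0.052 and 0.053 CPM. The mast cell marker Kit rose from 1.51 and 1.32 CPM to 3.58 and 3.32 CPM (edgeR adjusted p = 0.000608), while Cpa3 and Mcpt4 were at 0 in all 4 libraries and Ms4a2 was at 0 in the knockout. Of 5 dendritic cell markers Xcr1 rose from 1.21 and 1.01 CPM to 2.38 and 2.63 CPM (edgeR adjusted p = 0.00352; 0.0877 by DESeq2 and 0.0561 if knockout replicate 2 was dropped). The summed level of the 5 was 4.69 and 5.97 CPM in wild type and 5.70 and 5.58 CPM in the knockout. The collagen gene Col1a1, a stromal marker, had 0.555 and 1.11 CPM in wild type and 0.777 and 0.579 in the knockout. The 5 stromal markers summed to 19 and 19.1 CPM in wild type and 27 and 27.3 CPM in the knockout. Most of that came from Pecam1, which T cells can also express, with 17.9 and 16.7 CPM in wild type and 25.4 and 25.8 CPM in the knockout. The part of these cell types in the Tgfb3 values was not tested.

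Genes whose pattern over the 4 libraries lay nearest to that of Tgfb3 were sought among tested genes whose mean was 5 CPM or more, by Euclidean distance of log2 CPM centred on each gene's mean. Among the 3 nearest were 4932438H23Rik, at a distance of 0.12, and Tmem108, at 0.15, which both overlap a gene on the opposite strand. With 4 libraries in 2 groups, such a distance says little beyond a like fold change.

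**Figure D2:**
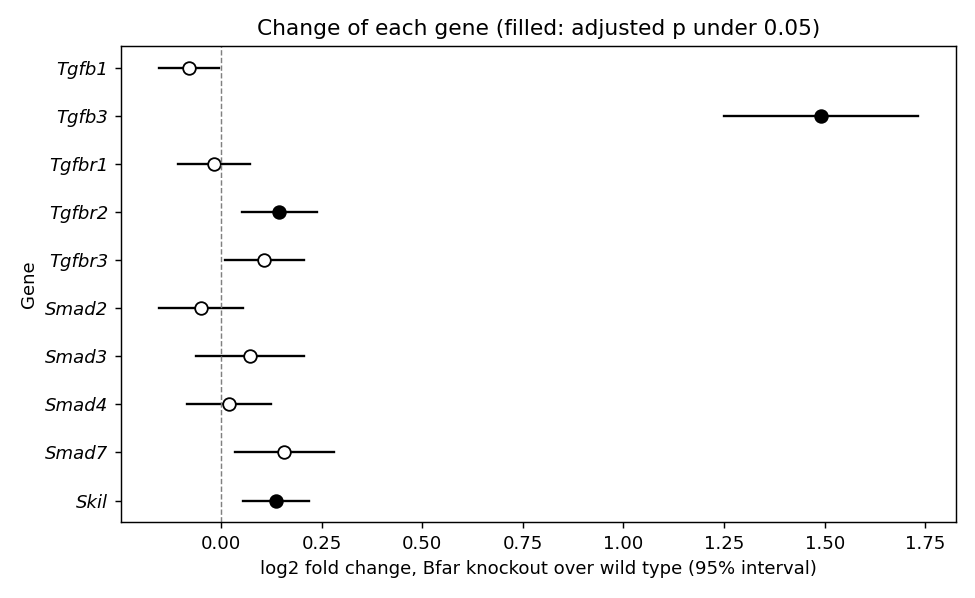
Log2 fold change of each gene, knockout over wild type, with its 95% interval from the edgeR fit (n = 2 libraries per group); filled points passed an adjusted p under 0.05. Tgfb3 lies at 1.49, while the other members lie between -0.08 and 0.16.

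Of the receptors, Tgfbr2 was called higher in the knockout by a small margin, and Tgfbr1 and Tgfbr3 were not called. Tgfbr1 (gene 21812, chromosome 4, 47353222 to 47414926), the type I kinase, had 38.2 and 39.1 FPKM in wild type and 39.4 and 36.7 FPKM in the knockout, and the groups overlapped. Its log2 fold change was -0.02 ± 0.04 (SE; edgeR adjusted p = 0.812), with a 95% interval of -0.11 to 0.07, that is, a fold of 0.929 to 1.05. Without wild type replicate 2 the log2 fold change was 0.00 and without knockout replicate 2 it was 0.03.

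Tgfbr2 (gene 21813, chromosome 9, 116087695 to 116175363), the ligand-binding type II receptor, had 19.7 and 19.2 FPKM in wild type and 21.8 and 20.9 FPKM in the knockout, with no overlap. In counts these were 1862, 1818, 2022 and 1915. Tgfbr2 rose by 10.6% (95% interval 3.67% to 17.9%; edgeR adjusted p = 0.0227, n = 2 per group). Leaving out 1 library gave an adjusted p of 0.0782 without wild type replicate 1, 0.145 without wild type replicate 2, 0.151 without knockout replicate 1 and 0.0662 without knockout replicate 2, and 5 of 13 alternatives kept the call. The ratio of Tgfbr1 to Tgfbr2 FPKM was 1.94 and 2.04 in wild type and 1.81 and 1.75 in the knockout. The groups did not overlap, and the exact two-sided permutation test gave p = 0.333, the smallest possible here.

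Tgfbr3 (gene 21814, chromosome 5, 107106567 to 107289629), the co-receptor betaglycan, had 25.0 and 24.0 FPKM in wild type and 25.2 and 27.3 FPKM in the knockout. Both knockout libraries were above both wild-type libraries, the nearest by a narrow margin. The log2 fold change was 0.11 ± 0.05 (SE; edgeR adjusted p = 0.0986) and did not pass the test. A gene annotated on the same strand, Gm43422, overlaps 297 exon bases of Tgfbr3 and is not listed in any library. The weighted transcript length that the tables give for each gene moved little between libraries, from 4740 to 4757 bases for Tgfbr2 and from 5742 to 5748 bases for Tgfbr1, so the mix of transcripts of different length was steady.

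The SMADs that carry the signal had differences near 0, and none passed the test. Smad2 had 8.85 and 9.56 FPKM in wild type and 8.89 and 8.84 FPKM in the knockout (log2 fold change -0.05, 95% interval -0.15 to 0.06; edgeR adjusted p = 0.498). Its partner Smad3, which binds DNA directly, had 7.37 and 7.51 FPKM in wild type and 7.44 and 8.15 FPKM in the knockout (0.07, interval -0.06 to 0.21; edgeR adjusted p = 0.434). The common subunit Smad4 had 22.9 and 21.6 FPKM in wild type and 22.9 and 22.1 FPKM in the knockout (0.02, interval -0.08 to 0.12; edgeR adjusted p = 0.797). All 3 pairs of groups overlapped. The widest of these intervals reached a fold of 1.15, for Smad3, so larger rises lie outside them.

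Smad2 and Smad4 lie on chromosome 18 (76241090 to 76311748 and 73634790 to 73703791) and Smad3 on chromosome 9 (63646766 to 63757994). Smad2 was the one member with fractional expected counts, that is, with reads that also matched another gene. The ratio of Smad2 to Smad3 FPKM was 1.201 and 1.273 in wild type and 1.195 and 1.085 in the knockout, a difference that the exact two-sided permutation test cannot call (p = 0.333, the smallest possible).

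Of the inhibitors, Skil was called higher in the knockout and Smad7 was not, with differences of a size like that of Tgfbr2 (10.6%). Smad7 (gene 17131, chromosome 18, 75367365 to 75395935), which blocks the type I receptor, had 10.9 and 12.2 FPKM in wild type and 12.9 in each knockout library (12.89 and 12.87 FPKM). The knockout values lay above both wild-type values, and wild type replicate 1 was the lowest. The log2 fold change of Smad7 was 0.16 ± 0.06 (SE; edgeR adjusted p = 0.0567), with a 95% interval of 0.03 to 0.28, and it missed the threshold. It was 0.08 without wild type replicate 1 (adjusted p = 0.476) and 0.24 without wild type replicate 2 (adjusted p = 0.023), so the value depends on which wild-type library is kept.

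Skil (gene 20482, chromosome 3, 31095058 to 31122923), the SMAD co-repressor, had 29.2 and 28.3 FPKM in wild type and 31.5 and 31.4 FPKM in the knockout. The groups did not overlap. Skil rose by 9.93% (95% interval 3.89% to 16.3%; edgeR adjusted p = 0.0154, n = 2 per group). Dropping wild type replicate 2 gave an adjusted p of 0.132, dropping knockout replicate 1 gave 0.087 and dropping knockout replicate 2 gave 0.0985, and 6 of 13 alternatives kept the call. Its relative Ski, which is no member, had a log2 fold change of -0.05 (adjusted p = 0.418) and overlapping groups.

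**Figure D3:**
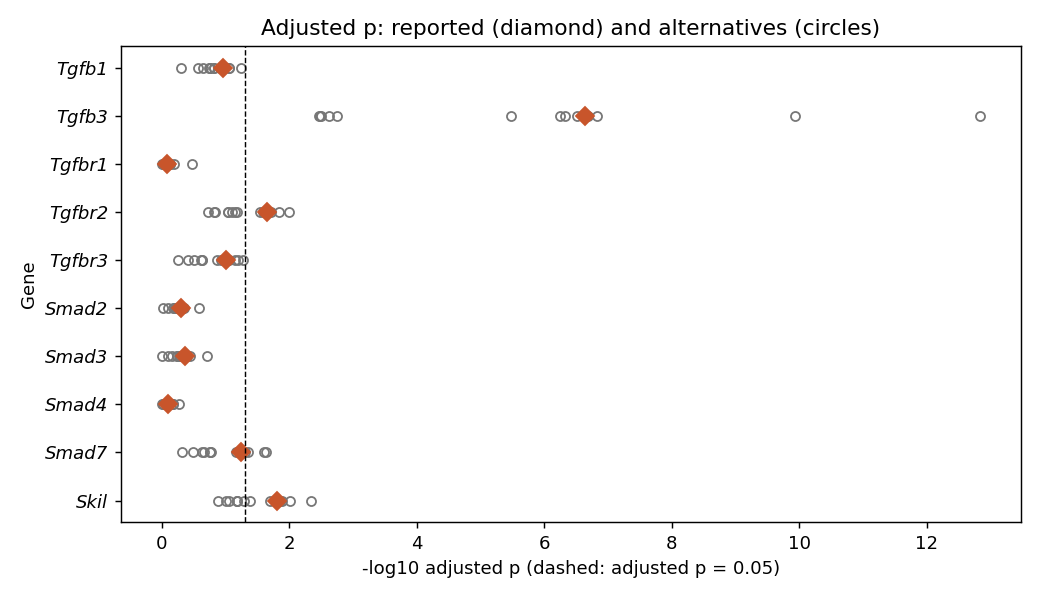
Adjusted p (−log10) of each member in the reported edgeR test (diamond) and under 13 alternative settings (circles); the dashed line is an adjusted p of 0.05. Tgfb3 lies right of the line throughout, Tgfbr2, Skil and Smad7 fall on both sides, and the other members stay left of it.

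The rest of the pathway was read from 6 fixed lists, which hold 103 genes besides the members, 88 of them tested. Of these 28 rose and 12 fell by the same test, against 13.6% and 13.2% of all tested genes, and their median log2 fold change was 0.06. Leaving out knockout replicate 1 gave 16 and 6, leaving out knockout replicate 2 gave 13 and 4, and leaving out wild type replicate 1 gave 19 and 6. The lists were chosen with earlier results of these data known.

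**Figure D4:**
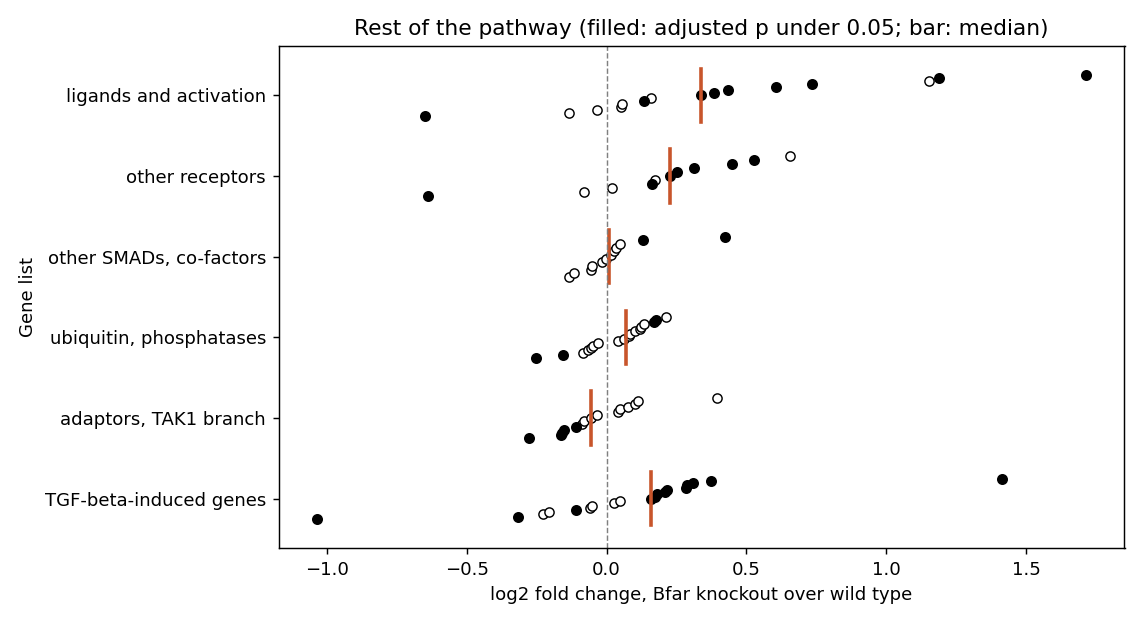
Log2 fold changes, knockout over wild type, of the tested genes in each list; each point is a gene, filled where the adjusted p was under 0.05, and the coloured bar is the list's median. The medians of ligands and activation (0.34) and of other receptors (0.23) lie right of 0, and that of adaptors and the TAK1 branch (-0.06) lies left.

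The first list held other ligands and the machinery that releases TGF-beta from its latent complex. Of 15 tested genes 8 rose and 1 fell by edgeR, where 13.6% of all tested genes were called higher and 13.2% lower. The median log2 fold change was 0.34, against -0.00 over all tested genes. DESeq2 called 4 higher and none lower, and limma-voom called 9 and 1. Limma called 4 and 1 on log2(FPKM + 0.1), and 5 and 1 on log2(FPKM + 1). Inhba, which encodes the subunit of activin A, had 28.7 and 28.4 CPM in wild type and 64.2 and 66.0 CPM in the knockout. It rose 2.28-fold (log2 1.19 ± 0.06, SE, n = 2 per group; edgeR adjusted p = 9.67e-10), and its groups stood far apart. Itgav, which encodes the alpha V integrin chain that binds latent TGF-beta, rose by 0.38 ± 0.04 on the log2 scale, from 134.2 and 138.9 CPM to 176.3 and 180.2 CPM (edgeR adjusted p = 6.79e-06).

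Itgb8, its activating partner chain, was near the limit of detection, since its counts were 6 and 8 in wild type and 18 and 27 in the knockout. It had an edgeR adjusted p of 0.0081, which became 0.0904 if wild type replicate 1 was dropped and 0.113 if knockout replicate 2 was dropped. Gdf11, a ligand of activin receptors, fell by 0.65 ± 0.15 in log2 units (adjusted p = 0.00421 by edgeR; 0.0763 if knockout replicate 2 was dropped).

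Of 11 tested receptors of the wider superfamily 6 rose and 1 fell by edgeR, where 13.6% of all tested genes were called higher and 13.2% lower, with a median log2 fold change of 0.23. DESeq2 called 3 higher and none lower, and limma-voom called 6 and 1. Limma called 4 and 1 on log2(FPKM + 0.1), and 3 and 1 on log2(FPKM + 1). Acvrl1, a type I receptor known as ALK1, had 54.6 and 51.4 CPM in wild type and 72.7 and 80.0 CPM in the knockout, a rise of 0.53 ± 0.06 in log2 units (adjusted p = 8.78e-06 by edgeR, n = 2 per group). The type II receptor genes Acvr2a, which binds activin, and Bmpr2, which binds bone morphogenetic proteins, also rose. Acvr2a had 15.3 and 16.1 CPM in wild type and 20.9 and 22.0 CPM in the knockout, and Bmpr2 had 94.7 and 93.6 CPM in wild type and 111.9 and 112.1 CPM in the knockout. Cd109, which encodes a co-receptor that limits TGF-beta signalling, was the receptor gene of the list that fell, at -0.64 ± 0.15 (edgeR adjusted p = 0.00571; 0.0659 if knockout replicate 2 was dropped).

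Of 12 tested genes for other SMADs, co-repressors and co-activators 2 rose and none fell by edgeR, with a median of 0.01. Of all tested genes 13.6% were called higher and 13.2% lower, so the 2 rises were near that share. At an unadjusted p under 0.05 1 of the 12 was lower, and none of them fell by DESeq2 or limma. Runx3, which encodes a transcription factor that partners with SMADs, rose from 188.2 and 186.3 CPM to 243.3 and 258.5 CPM (log2 0.42 ± 0.04; edgeR adjusted p = 2.72e-06, n = 2 per group). Among 18 ubiquitin ligases, deubiquitinases and phosphatases of the pathway 2 rose and 2 fell by edgeR, near the 13.6% and 13.2% of all tested genes, with a median of 0.07. DESeq2 and limma on either FPKM scale called none higher and 1 lower, and limma-voom called 1 and 1. Uchl5, a deubiquitinase that binds SMADs, fell by 0.25 ± 0.05 on the log2 scale, from 59.6 and 61.6 CPM to 51.1 and 50.8 CPM (edgeR adjusted p = 0.00196).

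Of 15 receptor adaptors and genes of the branch that runs through the kinase TAK1, none rose and 5 fell by edgeR, with a median of -0.06. By the same test 13.6% of all tested genes were called higher and 13.2% lower. At an unadjusted p under 0.05 1 was higher and 6 were lower, and DESeq2 called none higher and 2 lower. Mapk14, which encodes the p38 alpha kinase downstream of TAK1, had 113.96 and 115.3 CPM in wild type and 94.95 and 93.94 CPM in the knockout. The fall of Mapk14 was 0.28 ± 0.04 in log2 units (edgeR adjusted p = 0.000179, n = 2 per group). Map3k7, the gene for TAK1, fell by 0.15 ± 0.04 (edgeR adjusted p = 0.0118). Dropping wild type replicate 1 gave 0.0946 for Map3k7, dropping knockout replicate 1 gave 0.121, and dropping knockout replicate 2 gave 0.0517.

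The last list held known TGF-beta-induced genes. Of 19 tested 10 rose and 3 fell by edgeR, where 13.6% of all tested genes were called higher and 13.2% lower. The 3 falls were near that lower share. The median log2 fold change of the list was 0.16, and DESeq2 called 8 higher and 2 lower. Bhlhe40, a transcription factor of activated T cells, rose by 0.37 ± 0.03 in log2 units (SE, n = 2 per group), and Junb, an AP-1 subunit, by 0.18 ± 0.03 (edgeR adjusted p = 0.00128). Il9 is on the same list and fell by 1.04 ± 0.05, from 536.7 and 505.0 CPM to 237.9 and 270.2 CPM. Id1, an inhibitor of basic helix-loop-helix factors, fell by 0.32 ± 0.06 (edgeR adjusted p = 0.00198; 0.05 if knockout replicate 1 was dropped). Foxp3, the defining factor of regulatory T cells, is on both this list and that of regulatory T cell markers, and had 320.7 and 298.4 CPM in wild type and 371.1 and 347.3 CPM in the knockout (log2 0.21; edgeR adjusted p = 0.00217; 0.0805 if knockout replicate 1 was dropped).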

How the data were processed

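Per the labels' protocols, libraries were run on a HiSeq sequencer. The submitters' processing notes name Bowtie, RSEM and the build GRCm38 (mm10). The deposited tables give an expected count, made by the authors' run of RSEM, which divides reads that match several genes, and the authors' FPKM, per the file headers. The sources used here do not give the annotation release or strand setting. A gene missing from a table was set to 0.

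Expected counts were rounded and tested with edgeR 4.0.16 (R 4.3.3), quasi-likelihood, two-sided: genotype as factor, TMM factors, filterByExpr (minimum count 10, minimum total 15), Benjamini-Hochberg adjustment over 12677 genes at 0.05. The shares of all tested genes called higher and lower were counted for this test at the adjusted p only. Counts at an unadjusted p, or by DESeq2 or limma, therefore stand without such a share by direction. CPM use TMM-scaled library sizes. The SE is the absolute log2 fold change over the square root of F, and intervals are 95%. This fit draws each gene's variance toward that of all tested genes. The SE, intervals and p-values therefore do not rest on a gene's own libraries alone. The fit was also run on simulated counts with the same spread for every gene, which cannot show how it performs on these libraries. In each library 3 counts are 0.152 to 0.157 CPM. A chi-square test of counts over genes gave 2.15 per degree of freedom within wild type and 2.47 within the knockout, so no library was a duplicate.

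The members and lists were chosen with earlier results of these data known. Named were the members, Bfar, up to 6 called genes per list by smallest adjusted p, Tgfb2, Ski, and the 3 genes nearest to Tgfb3; fewer are described, and 1 is not reported here. Foxp3, Cd5, Pf4, Ppbp, Itga2b, Gp1bb, Kit, Cpa3, Mcpt4, Ms4a2, Xcr1, Col1a1 and Pecam1 come from the marker lists. Coordinates are from RefSeq (GRCm38.p6; 17440 of 17478 identifiers matched). Genes on the opposite strand also overlap exon bases of Itgav (634) and Acvr2a (446), among other named genes. Alternatives were DESeq2 1.42.0, limma 3.58.1 (voom, log2(FPKM + 0.1) and log2(FPKM + 1)), other scalings and filters, each library left out, and a replicate block.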

Additional observations from a re-analysis of the deposited data

How the results depend on the processing

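Tgfb3 and Bfar were called in the same direction under all 13 alternatives, as were Inhba, Itgav, Acvrl1, Runx3, Mapk14 and Il9. The members called higher, 3 as reported, numbered 1 with no filter on low counts, 1 with DESeq2, 1 with log2(FPKM + 0.1) and 1 with log2(FPKM + 1), and from 1 to 2 with a library left out. Members called lower were 0 under each alternative. In the other pathway genes, 28 and 12 became 14 and 6 with no filter, 17 and 5 with DESeq2, and 18 and 7 with either FPKM scale, and with a library left out they ranged from 13 to 20 and from 4 to 9. Over all genes 3398 became 1928 with no filter and 1577 with DESeq2, and ranged from 1441 to 2355 with a library left out. Smad7 passed with upper-quartile factors (adjusted p = 0.0445) and with a minimum mean of 1 CPM (0.0495). With a library left out, 4 log2 fold changes near 0 took both signs: -0.0682 to 0.0342 for Tgfbr1, -0.105 to 0.0077 for Smad2, -0.0226 to 0.0651 for Smad4 and -0.113 to 0.0129 for Ski. Where 1 library was left, edgeR assumed that it varies like the other group. Whether same-numbered libraries were paired is not known from their replicate numbers. Their deviations from the group means had a correlation of 0.007. That is 1 unweighted value over all tested genes with 2 libraries per group, so it cannot exclude pairing. An edgeR fit with a replicate block called 4 members higher, Smad7 with them (adjusted p = 0.0246), and 3952 genes in all. The causes of these shifts were not tested. Depth limits Tgfb2 and Itgb8.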
